A study of Mus musculus with 8 samples.

Results

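The insulin-like growth factor (IGF) system of cultured mouse follicular cells was followed through 10 genes that encode its ligands (Igf1, Igf2), its receptors (Igf1r, Igf2r and the insulin receptor Insr) and its binding proteins (Igfbp2, Igfbp3, Igfbp4, Igfbp5 and Igfbp6). The genes were found by their mouse Entrez gene IDs among the 24232 genes that the array measures, and 8 of the 10 were bright enough to be tested, with 15645 genes in all. The cells came from preantral follicles of 8-week-old female Swiss mice, with 5 mice pooled for each replicate, and were described by the submitters as mostly granulosa cells. All 4 groups shared the same treatment up to the last days: growth as a monolayer, first in medium that contained androstenedione and an insulin supplement, then in medium with charcoal-treated serum and no androstenedione, and transfection with 12 pmol of siRNA together with a plasmid for the red fluorescent protein DsRed. The labels do not say whether insulin was still supplied after the change of medium. The groups were control siRNA + vehicle, control siRNA + E2, FOXL2 siRNA + vehicle and FOXL2 siRNA + E2. The siRNA acted for 24 h before E2 or vehicle was added. E2 is 17β-estradiol at 100 nM given 10 h before lysis, and vehicle is its ethanol solvent. Each group held 2 arrays, one per independent culture, after 9 days of culture. FOXL2 is the forkhead transcription factor of granulosa cells, and the design asks how its depletion and estradiol act on the transcriptome alone and together.

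IGF1 and IGF2 are secreted peptides related to insulin. Both activate the tyrosine kinase receptor IGF1R, and IGF2 and insulin also activate INSR, which signals through the same insulin receptor substrate proteins. IGF2R, the mannose 6-phosphate receptor, has no kinase and removes IGF2 from the cell surface. The binding proteins hold the ligands outside the cell and so set how much of them can reach a receptor. In the mouse ovary, granulosa cells of growing follicles make IGF1, which increases their response to follicle-stimulating hormone.

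RefSeq promoter windows, from 250 bases before to 50 bases after a transcription start on the build GRCm38.p6, were at hand for 9 of the 10 genes, in 13 windows of 300 bases. Windows for Igfbp2 and Igfbp5 are printed because these genes are neighbours on chromosome 1, with no other protein-coding gene between them in the annotation, and their signals lay on opposite sides of the control with FOXL2 siRNA. The window of Igf1 is printed because Igf1 was the ligand with measurable signal. Each reads 5′ to 3′ along its own gene, in lower case, with matches to the searched motifs in capitals. The Igfbp2 window is the more upstream one of a pair for this gene.
Igfbp2, chr1:72824230-72824529, plus strand: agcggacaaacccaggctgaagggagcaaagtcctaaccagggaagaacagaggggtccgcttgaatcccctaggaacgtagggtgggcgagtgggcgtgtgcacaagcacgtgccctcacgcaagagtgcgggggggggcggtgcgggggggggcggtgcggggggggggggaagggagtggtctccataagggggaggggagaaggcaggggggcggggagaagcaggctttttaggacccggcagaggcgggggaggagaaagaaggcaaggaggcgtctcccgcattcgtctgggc
Igfbp5, chr1:72874816-72875115, minus strand: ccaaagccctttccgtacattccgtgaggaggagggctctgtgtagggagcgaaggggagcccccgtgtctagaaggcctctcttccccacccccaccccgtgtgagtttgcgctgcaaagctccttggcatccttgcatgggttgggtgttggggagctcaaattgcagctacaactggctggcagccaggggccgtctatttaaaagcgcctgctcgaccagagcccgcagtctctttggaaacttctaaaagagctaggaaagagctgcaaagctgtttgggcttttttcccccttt
Igf1, chr10:87860861-87861160, plus strand: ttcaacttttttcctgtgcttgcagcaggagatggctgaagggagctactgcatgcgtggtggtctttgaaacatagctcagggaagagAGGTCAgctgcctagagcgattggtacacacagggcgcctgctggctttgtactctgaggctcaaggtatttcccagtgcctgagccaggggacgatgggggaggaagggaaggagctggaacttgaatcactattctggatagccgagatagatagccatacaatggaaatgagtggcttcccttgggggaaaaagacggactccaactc

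Both strands of all windows were searched for the forkhead core GTAAACA, the core GTCAAGG of a FOXL2 response element, the nuclear receptor half-site AGGTCA and the estrogen response element, which is GGTCA and TGACC with 3 bases between them. The last of these shares bases with the half-site, and the half-site can overlap GTCAAGG. The forkhead core, the FOXL2 core and the estrogen response element had no match in any of the 13 windows, against 3.65%, 3.18% and 0.07% of all 32851 promoter windows of this length. The half-site matched 4 of the 13 windows, in Igf1, Igf1r, Igf2r and 1 of the windows of Igf2, against 16.3% of all windows. With shares of 3.65% or less among all windows, a lack of matches in 13 windows says little about these genes. These matches describe the letters of the windows only, and no binding was measured on these arrays.

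The gene that the siRNA targets went against its label when all its probes were averaged. Foxl2 signal was 0.18 higher on the log2 scale with FOXL2 siRNA (SE 0.10, adjusted p = 0.334, limma). It had a pair of probes. The bright one, which gave 99.6% of the gene's signal, differed by 0.18, and the dim one, with 0.43% of the signal, fell by 0.97 (adjusted p = 0.0200 in the limma fit over probes). The arrays are therefore named below by their labels, as arrays labelled FOXL2 siRNA, and a direction drawn from them is that of the label. Genes known to depend on FOXL2, picked after their values were seen, moved the way the label implies: Sox9, which FOXL2 represses in granulosa cells, rose by 2.05 (adjusted p = 0.000302), and Fst, which it activates, fell by 2.02 (adjusted p = 0.000226). Among 12 granulosa cell markers, 9 were well above background on all 8 arrays, while Fshr and Amh, which encode the receptor for follicle-stimulating hormone and anti-Müllerian hormone, were above it on 0 arrays. Arrays with the same replicate number deviated together: the correlation of deviations from the group means was between 0.329 and 0.445 in the 6 pairs of groups, so values are also given from a fit with the replicate number as a block.

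Igf1 was lower on the arrays labelled FOXL2 siRNA. Log2 scaled signal was 11.71 and 11.36 with control siRNA + vehicle and 11.87 and 11.59 with control siRNA + E2, in the order of replicates 1 and 2. It was 11.29 and 11.01 with FOXL2 siRNA + vehicle and 11.18 and 10.82 with FOXL2 siRNA + E2. The arrays of the siRNAs did not overlap, and replicate 2 was below replicate 1 in every group, by 0.28 to 0.36. Averaged over vehicle and E2, Igf1 fell by 0.55 (SE 0.13, adjusted p = 0.0277, limma over 15645 genes), to 68.1% of the control signal, and the block gave an adjusted p of 1.40e-05. Without the filter on dim genes the adjusted p was 0.0505, and without the intensity trend it was 0.0658. In these bulk samples, fewer cells of a type and less RNA per cell cannot be told apart.

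Igf2, the other ligand, has 1 probe, which was not well above background on 7 arrays. It stood above background on 1 array, FOXL2 siRNA + E2 replicate 1, at a log2 signal of 5.08, whereas the other 7 lay between 1.46 and 3.70. The other array of the same group was the lowest of all. Igf2 was below the filter on dim genes and was left out of the test, and without the filter its adjusted p was 0.986.

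Among the receptors, Insr was lower and Igf1r was higher on the arrays labelled FOXL2 siRNA. Insr signal was 7.40 and 7.33 with control siRNA + vehicle, 7.68 and 7.45 with control siRNA + E2, 6.93 and 6.96 with FOXL2 siRNA + vehicle, and 7.09 and 6.88 with FOXL2 siRNA + E2 (log2 scale). Every array labelled FOXL2 siRNA lay below every control siRNA array. Insr, whose product binds insulin and IGF2, fell by 0.50 (SE 0.10, adjusted p = 0.0179), to 70.6% of the control, with an adjusted p of 0.00143 in the blocked fit. With the brightest probe alone in place of the mean of its probes, the adjusted p was 0.0556.

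Igf1r, the signalling receptor for both ligands, gave log2 signals of 9.46 and 9.61 with control siRNA + vehicle and 9.12 and 9.49 with control siRNA + E2. The signals were 9.82 and 10.34 with FOXL2 siRNA + vehicle and 9.65 and 10.37 with FOXL2 siRNA + E2. The arrays of the siRNAs did not overlap, although the lowest array labelled FOXL2 siRNA was 9.65 and the highest control array 9.61. The mean difference of 0.62 (SE 0.19) did not pass the test without the block (adjusted p = 0.0688) and passed it with the block (adjusted p = 0.000176) and after normexp background correction (adjusted p = 0.0495). Replicate 2 was above replicate 1 in every group, by 0.15 to 0.73.

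Igf2r, the clearance receptor, spanned 9.58 to 9.83 on the control siRNA arrays and 9.53 to 9.91 on the arrays labelled FOXL2 siRNA, on the log2 scale. The ranges overlapped throughout. The mean difference was -0.03, with a 95% interval from -0.27 to 0.21, and the adjusted p was 0.895 (0.780 with the block).

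Igfbp2 was the binding protein gene that was higher, and it gave the smallest adjusted p of the tested members. Its signal was 12.23 and 12.93 with control siRNA + vehicle and 12.04 and 12.86 with control siRNA + E2. It was 13.57 and 14.36 with FOXL2 siRNA + vehicle and 13.53 and 14.28 with FOXL2 siRNA + E2. All 4 arrays labelled FOXL2 siRNA lay above all 4 control arrays, and replicate 2 was above replicate 1 by 0.70 to 0.83 in every group. Igfbp2, whose product binds IGF2 with preference over IGF1, rose by 1.42 (SE 0.28, adjusted p = 0.0157), which is 2.68-fold with a 95% interval from 1.70 to 4.21. The differences within a replicate number and treatment were 1.34 and 1.43 with vehicle and 1.50 and 1.41 with E2, for replicates 1 and 2, and the blocked fit gave 2.26e-08.

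Igfbp5, next to Igfbp2 on the chromosome, lay on the other side of the control. Log2 signal was 10.98 and 10.02 with control siRNA + vehicle, 10.996 and 10.32 with control siRNA + E2, 9.49 and 7.85 with FOXL2 siRNA + vehicle, and 9.75 and 7.91 with FOXL2 siRNA + E2. No array labelled FOXL2 siRNA reached a control array, and replicate 2 was below replicate 1 by 0.67 to 1.84. The mean difference was the largest in size of the 8 tested members, -1.83 (SE 0.50), or 28.2% of the control signal. Its adjusted p was 0.0512 without the block, 3.13e-06 with it and 0.0181 after normexp background correction. Within a replicate number the difference was -1.49 and -1.24 in replicate 1, and -2.17 and -2.41 in replicate 2, for vehicle and E2 in turn.

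Igfbp4, which encodes a binding protein of ovarian follicles that proteases of the pappalysin family cleave, was well above background on 7 of the 8 arrays. Its log2 signal was 5.79 and 5.74 with control siRNA + vehicle and 6.28 and 5.50 with control siRNA + E2. With FOXL2 siRNA + vehicle it was 5.18 and 3.95, the latter not well above background, and with FOXL2 siRNA + E2 it was 5.07 and 4.23. The arrays of the siRNAs did not overlap. The mean difference was -1.22 (SE 0.33), with an adjusted p of 0.0525 without the block and 0.000616 with it. It shrank to -0.38 (adjusted p = 0.155) after normexp background correction, in which an offset of 50 is added to every corrected signal.

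Igfbp6, whose product binds IGF2 far better than IGF1, ranged from 8.94 to 9.44 on the control arrays and from 9.11 to 9.76 on the arrays labelled FOXL2 siRNA. These ranges overlapped, and the mean difference was 0.15 (95% interval from -0.23 to 0.54, adjusted p = 0.616; 0.135 with the block). Igfbp3, the main carrier of IGF1 in blood, did not stand well above background on a single array, with either of its probes. Its signals lay between 1.35 and 1.79 on control arrays and between 1.96 and 3.01 on arrays labelled FOXL2 siRNA. The ranges did not overlap, but all of them are at background, so no fold is given, and the gene was below the filter on dim genes. Without that filter, limma over 24232 genes gave Igfbp3 an adjusted p of 0.0412, with FOXL2 siRNA on the higher side, beside 6.43% of all genes called. After normexp background correction its adjusted p was 0.334.

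**Figure D1:**
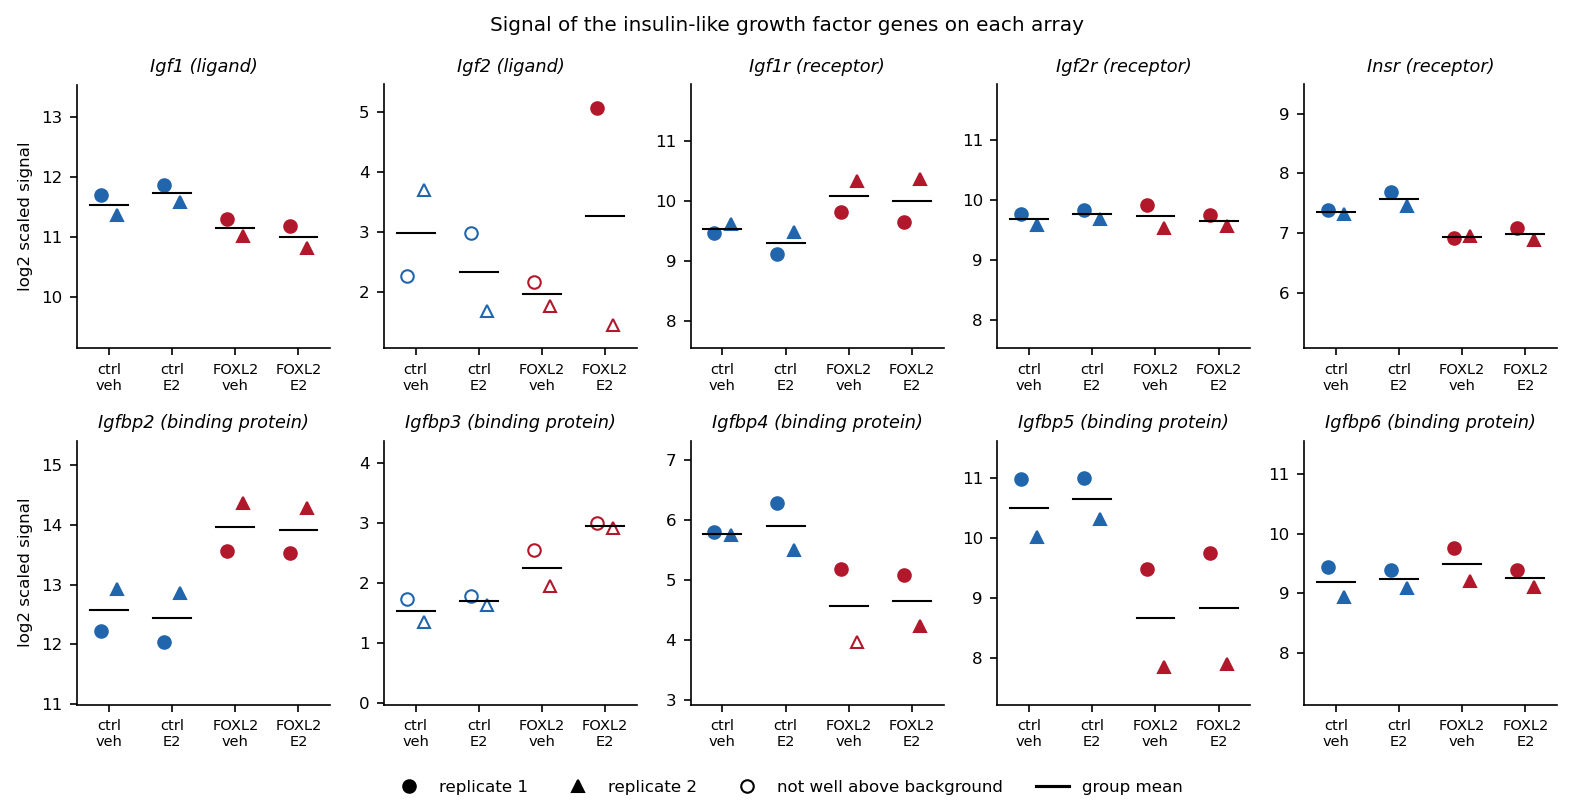
Log2 scaled signal of the 10 genes on each of the 8 arrays, with control siRNA in blue (ctrl), FOXL2 siRNA in red, vehicle as veh, replicate 1 as circles, replicate 2 as triangles, open symbols not well above background and a line at each group mean. Every panel spans the same number of log2 units, and levels are not comparable between panels. The red points lie wholly above the blue ones for Igfbp2, Igf1r and, at background, Igfbp3, and wholly below them for Igf1, Insr, Igfbp4 and Igfbp5.

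Over both treatments, 3 of the 8 tested members were called at an adjusted p under 0.05: Igfbp2 rose, and Igf1 and Insr fell. Of all 15645 genes, 12.6% were called in this comparison, 6.39% higher and 6.18% lower. With the replicate number as a block, 6 of 8 were called, 2 higher (Igfbp2, Igf1r) and 4 lower (Igf1, Insr, Igfbp4, Igfbp5), beside 27.7% of all genes, 14.2% higher and 13.5% lower. The median change of the 8 was -0.27, beside -0.0026 over all genes. The arrays of the siRNAs did not overlap for these same 6 members, and such a gap was found for 20.9% of all genes tested, 10.1% higher and 10.7% lower. The 4 differences within a replicate number and treatment had 1 sign for these 6 as well, beside 42.9% of all genes. Single arrays decided the unblocked calls. The number of called members was 0 without control siRNA + E2 replicate 1 or without FOXL2 siRNA + vehicle replicate 2, 1 without FOXL2 siRNA + E2 replicate 2, 2 without control siRNA + vehicle replicate 1, 4 without FOXL2 siRNA + vehicle replicate 1 and 6 without FOXL2 siRNA + E2 replicate 1. Without either of the other arrays it stayed at 3. The size of the Igfbp2 effect stayed between 1.21 and 1.63 over these 8 fits, and its adjusted p reached 0.0553 at most. Igf1 stayed between -0.64 and -0.46 and Insr between -0.56 and -0.45, with adjusted p up to 0.0956 and 0.0767.

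**Figure D2:**
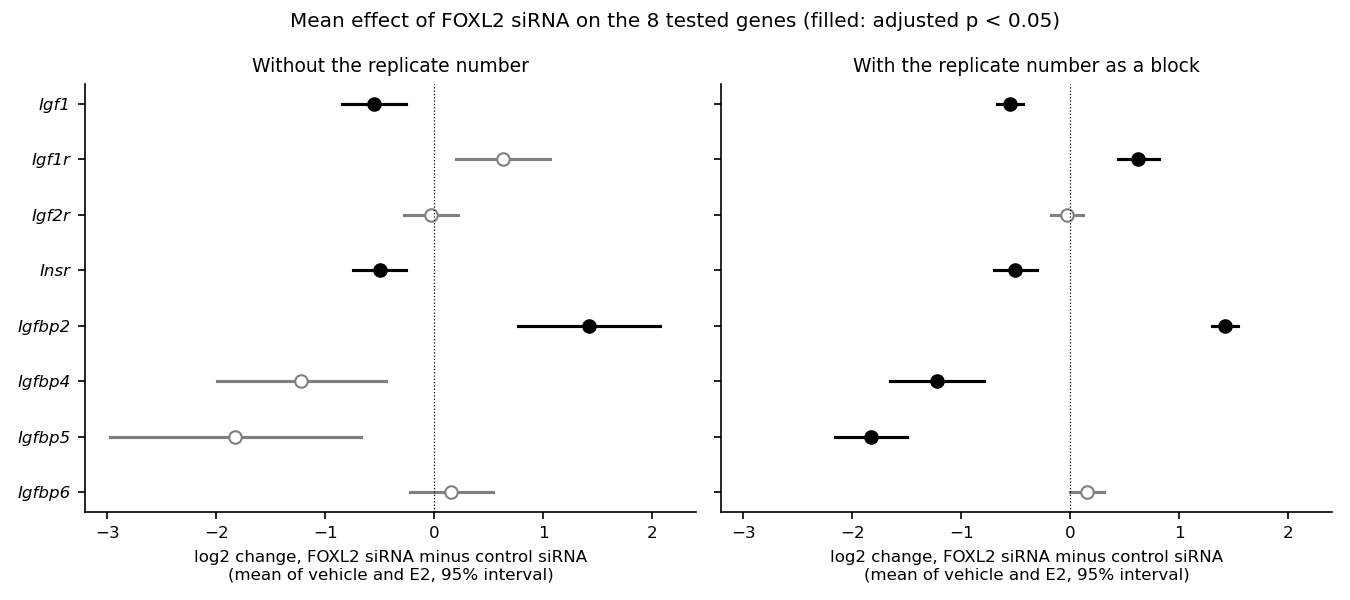
Mean log2 change with FOXL2 siRNA, over vehicle and E2, of the 8 tested genes, with 95% intervals, from the fit without the replicate number (left) and with it as a block (right). Filled symbols mark an adjusted p under 0.05: 3 genes on the left and 6 on the right, at the same effect sizes.

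Taken within one treatment, where 2 arrays stand against 2, none of the 8 members was called by limma without the block. With vehicle, 4 of them had an unadjusted p under 0.05, beside 3079 of all 15645 genes. The smallest adjusted p was 0.0923, and 6.53% of all genes were called. With E2, 6 had an unadjusted p under 0.05, beside 2589 of all 15645 genes. The smallest adjusted p was 0.0701, for Igf1, and 4.38% of all genes were called. The blocked fit called 6 of 8 in each treatment, beside 18.7% and 14.9% of all genes. Of the tested binding proteins, Igfbp2 was 1.39 higher with vehicle and 1.45 higher with E2, Igfbp5 was at -1.83 in both, Igfbp4 was at -1.20 and -1.24, and Igfbp6 was at 0.30 with vehicle and 0.01 with E2. The difference between the treatments was not called for any of these. A rule of the study's kind, with a log2 difference of at least 1 that is more than 2 times the sum of the SDs of both groups, was met by 0 members in either treatment, beside 2.94% of all genes with vehicle and 2.35% with E2. After centring within each replicate number it was met by Igfbp2 and Igfbp5 with vehicle and by Igfbp2, Igfbp4 and Igfbp5 with E2, beside 4.05% and 3.43% of all genes.

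Several probes covered 3 of the tested members. The 5 probes of Igf1 differed by -0.57 to -0.38 over both treatments, with FOXL2 siRNA lower for every probe, and 2 of them passed the test over probes (adjusted p = 0.0246 and 0.0227). They include the probe designed on the transcript variant NM_184052, which gave the difference of -0.38 (SE 0.13). The 3 probes of Insr differed by -0.65, -0.37 and -0.45, of which the first was called (adjusted p = 0.0179). The pair of Igfbp2 probes gave 1.41 (SE 0.26) and 1.43 (SE 0.30), and both were called (adjusted p = 0.0151 and 0.0272). Igf1r, Igf2r, Igfbp4, Igfbp5 and Igfbp6 each rest on 1 probe.

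**Figure D3:**
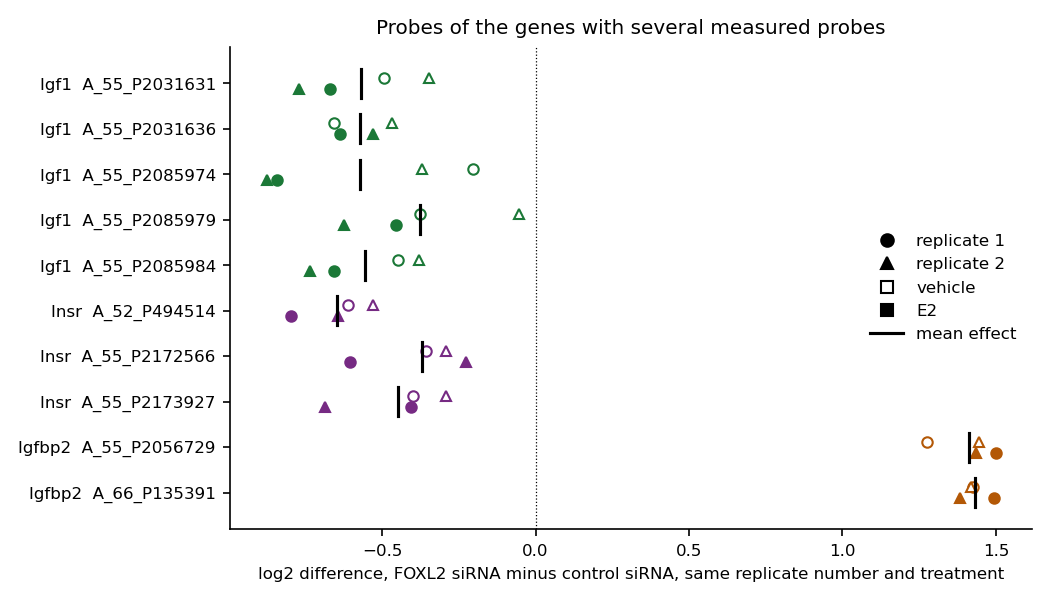
Log2 difference between arrays labelled FOXL2 siRNA and control siRNA arrays of the same replicate number and treatment, for each probe of Igf1, Insr and Igfbp2 (open: vehicle, filled: E2, circle: replicate 1, triangle: replicate 2, line: mean effect). All differences of Igf1 and Insr lie below 0 and those of Igfbp2 lie above 1.

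E2 gave no call among the members. With control siRNA, the changes in the 8 tested members ran from -0.23 (Igf1r) to 0.20 (Insr). Without the block, 0 of them were called by limma, beside 0.0192% of all genes, and 0 had an unadjusted p under 0.05, beside 716 of all genes. With FOXL2 siRNA they ran from -0.24 (Igfbp6) to 0.16 (Igfbp5). Again without the block, 0 were called, beside 0.0128% of all genes, and 0 had an unadjusted p under 0.05, beside 478 of all genes. Averaged over both siRNAs, 0 members and 0 of all genes were called, while 360 of all genes had an unadjusted p under 0.05. The block called 0 members in these comparisons too, beside 1.16% of all genes with control siRNA, 0.614% with FOXL2 siRNA and 0.0511% over both. The 95% intervals bound what 2 arrays per group could miss. For Igf1 with control siRNA the change of 0.19 had an interval from -0.22 to 0.61 without the block and from 0.022 to 0.37 with it. For Igfbp5 these intervals ran from -1.47 to 1.79 and from -0.31 to 0.63. With FOXL2 siRNA, the blocked interval of Igfbp6 ran from -0.45 to -0.016. Neither Igf1 nor Igfbp6 was called there after adjustment (adjusted p = 0.406 and 0.611, limma with the block).

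For Igf1 the E2 changes were positive in both replicates with control siRNA and negative in both with FOXL2 siRNA. E2 minus vehicle was 0.16 and 0.23 with control siRNA, and -0.11 and -0.19 with FOXL2 siRNA. The difference of these effects was -0.35, with a 95% interval from -0.93 to 0.24 without the block and from -0.59 to -0.10 with it. The adjusted p was 1.00 without the block and 0.205 with it (limma), so the difference was not called in either fit. For the other 7 tested members the difference of the E2 effects lay between -0.29 and 0.16. None of the 8 was called, with or without the block, beside 0.243% of all genes without it and 2.12% with it.

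**Figure D4:**
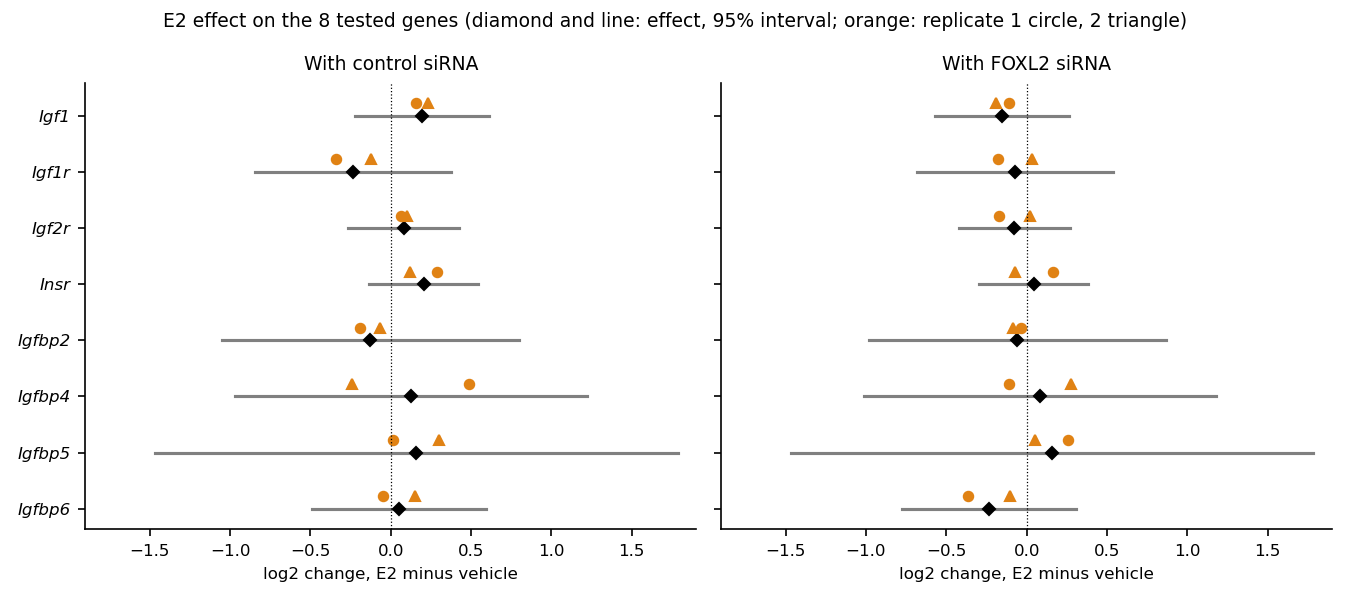
Log2 change with E2 of the 8 tested genes, with control siRNA (left) and with FOXL2 siRNA (right). Diamonds and lines are the effect and its 95% interval, and orange symbols are the differences within replicate 1 (circle) and replicate 2 (triangle). The intervals are from the fit without the block, and each of them includes 0. With the block, the intervals of Igf1 with control siRNA and of Igfbp6 with FOXL2 siRNA did not.

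Other genes of the pathway were taken from a list of 48, of which 39 passed the filter. The list was written with earlier results of these arrays known. Its shares, here and below, are therefore descriptions, and no set test was run. Over both treatments 6 were higher and 5 lower with FOXL2 siRNA, or 28.2% of the 39, beside 12.6% of all genes. The blocked fit called 10 higher and 9 lower, beside 14.2% and 13.5% of all genes. The median change of the 39 was -0.03. In the group that controls access to the ligands, 3 of the 4 tested genes rose and 0 fell. Stc2, whose product stanniocalcin-2 inhibits pappalysins, rose by 0.92 (SE 0.09, adjusted p = 0.00104). Pappa, the protease that cleaves IGFBP4, rose by 0.89 (SE 0.15, adjusted p = 0.00782), and Htra1, a serine protease that can cleave IGFBP5, rose by 0.32 (SE 0.06, adjusted p = 0.0158).

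Between the receptor and its kinases, 2 of the 7 tested adaptor genes fell and 0 rose. Both encode insulin receptor substrates. Irs1 fell by 0.87 (SE 0.10, adjusted p = 0.00139) and Irs2 fell by 0.50 (SE 0.10, adjusted p = 0.0137). In the lipid kinase branch 3 of 10 rose and 0 fell, among them the kinase gene Akt2 by 0.35 (adjusted p = 0.00745) and Inppl1, which encodes a lipid phosphatase, by 0.56 (adjusted p = 0.00117). With the block, 6 of these 10 were higher and 1 lower, beside 14.2% and 13.5% of all genes. The branches are small, and their counts are descriptions beside the 12.6% of all genes called without the block.

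Further down, 1 of 11 tested genes was called, 9.09% beside 12.6% of all genes: Foxo1, the forkhead factor that AKT keeps out of the nucleus, fell by 0.83 (SE 0.15, adjusted p = 0.0120). In the MAP kinase branch 2 of 5 fell and 0 rose, among them Mapk3 by 0.28 (adjusted p = 0.0420). Map2k1 was called with vehicle, where it fell by 0.92 (adjusted p = 0.0233), while with E2 it was at 0.13 (adjusted p = 0.803).

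With vehicle alone, 4 genes of the list rose and 4 fell, 20.5% of the 39 beside 6.53% of all genes. With E2, 2 rose and 1 fell, 7.69% beside 4.38%. Irs1 was at -1.24 with vehicle and -0.50 with E2, and Foxo1 was at -1.20 and -0.46. The difference of the E2 effects was called for 0 of the 39 without the block, beside 0.243% of all genes. With the block it was called for 3, Irs1, Foxo1 and Map2k1, beside 2.12% of all genes, and these comparisons share their arrays. The E2 effects themselves gave 0 calls in the list without the block. Leaving out single arrays moved the count with vehicle, 8, to 3 without FOXL2 siRNA + vehicle replicate 1 or replicate 2, to 5 without control siRNA + vehicle replicate 1 and to 4 without control siRNA + vehicle replicate 2. The count with E2, 3, went to 0 without control siRNA + E2 replicate 1 or FOXL2 siRNA + E2 replicate 2, and to 1 without control siRNA + E2 replicate 2, FOXL2 siRNA + E2 replicate 1 or either array of FOXL2 siRNA + vehicle. The count over both treatments stayed between 8 and 14.

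**Figure D5:**
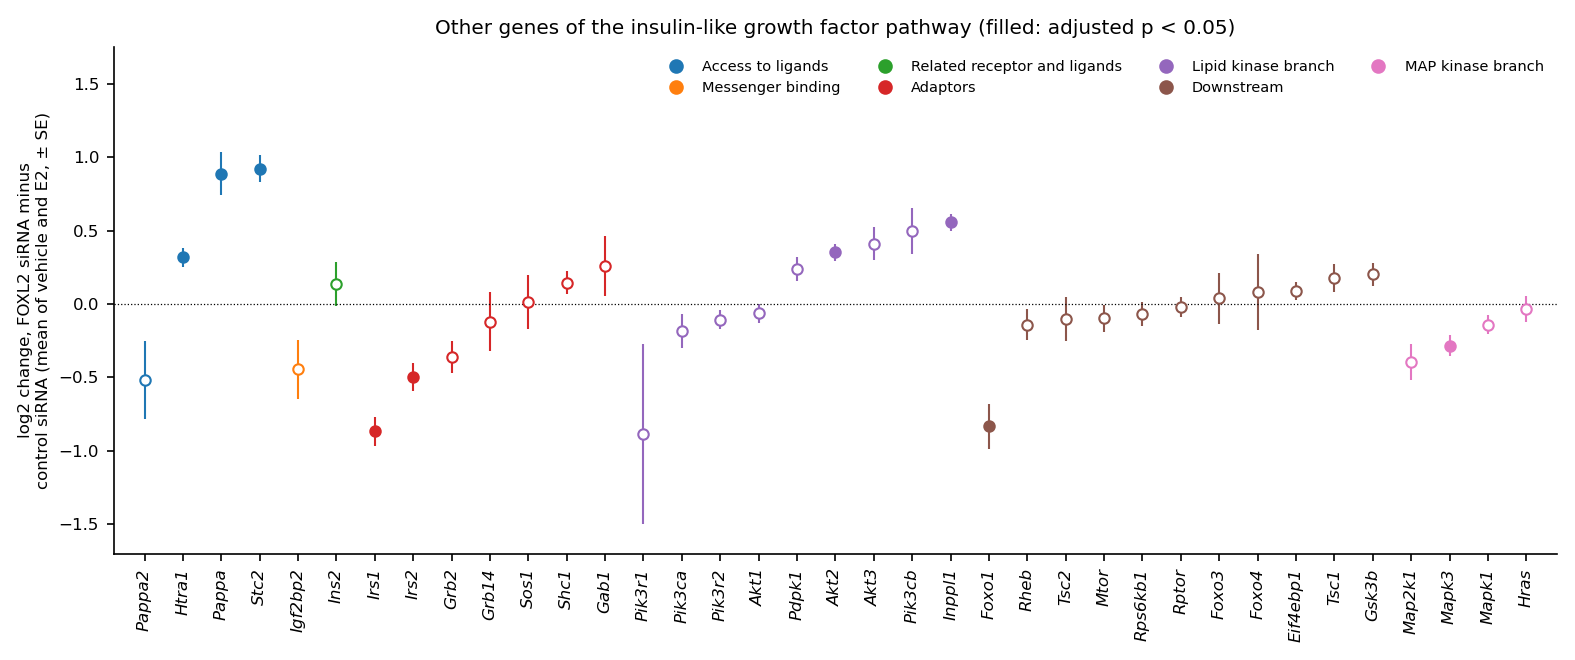
Mean log2 change with FOXL2 siRNA (± SE) over vehicle and E2 for 37 of the 39 tested genes of the pathway list, coloured by branch and ordered by change within a branch. Filled symbols mark an adjusted p under 0.05, with 5 genes above 0 and 4 below.

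The genes whose signal followed Igfbp2 most closely over the 8 arrays, among 12623 genes compared, were Gstm3, Arih1 and Cryab, each with a Pearson r of 0.994. The arrays share the siRNA groups and the replicate numbers, so the likeness is a description and was not tested. Gstm3 encodes a glutathione transferase and ranged from 9.43 to 10.08 on control arrays and from 10.55 to 11.31 on arrays labelled FOXL2 siRNA. Cryab, which encodes the small heat shock protein αB-crystallin, ranged from 10.61 to 11.56 and from 12.65 to 13.61. Arih1, which encodes a ubiquitin ligase, ranged from 8.55 to 8.95 and from 9.19 to 9.71.

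Markers of other cell types were read beside these results. Of 4 surface epithelium markers, Msln and Upk3b rose by 2.07 and 1.47 with FOXL2 siRNA (adjusted p = 0.000133 and 0.00445). The summed signal of that list was 509.7 to 746.7 on control arrays and 1771 to 2513 on the others. Of 4 Sertoli cell genes, Sox9, Sox8 and Dhh rose, while Dmrt1 was at -0.48 (adjusted p = 0.0695, 0.0111 with the block), and the list summed to 2373 to 3278 and to 4519 to 6416. In the granulosa list 1 gene rose (Inhbb, by 0.80) and 2 fell (Fst, by 2.02, and Esr2, by 0.46). This list summed to 132368 to 141243 on control arrays and to 151779 to 172209 on arrays labelled FOXL2 siRNA, so its sum was higher with that label. No theca, oocyte, macrophage, fibroblast, endothelial or smooth muscle marker was called without the block. With it, 7 of the 13 tested were called, beside 27.7% of all genes. Cyp17a1, Csf1r, Dcn, Col1a1, Kdr and Des were higher with FOXL2 siRNA in these calls, and Lum was lower. Pdgfra, Tcf21, Cdh5, Emcn, Myh11, Ptprc, Lyz2 and Lhcgr were above background on 0 arrays. Other members of the same lists were well above it on all 8 arrays. These were Dcn, Lum and Col1a1 (fibroblast), Kdr and Pecam1 (endothelium), Acta2 (smooth muscle), Csf1r and Cd68 (macrophage), and Cyp17a1 and Ptch1 (theca). On control arrays Dcn was at 12.28 to 13.19 and Acta2 at 11.88 to 13.55. Of 7 oocyte markers, 1 (Gdf9) was well above background on 8 arrays and 6 were above it on 0. The summed signals of the granulosa, surface epithelium and Sertoli lists did not overlap between the siRNAs, as for Igf1, Insr and Igfbp2. Those of the theca, oocyte, macrophage, fibroblast, endothelium and smooth muscle lists overlapped. The part of any list in the differences of Igf1, Insr and Igfbp2 was not tested.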

How the data were processed

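Amplified Cy3-labelled RNA, from 50 ng per sample, was measured on 8 one-colour Agilent arrays of 1 slide scanned in 1 run, so slide and scan could not differ between groups. Arrays were assigned to groups from the sample titles. The deposited scanner files hold processed spot intensity values from Agilent Feature Extraction 11.5.1.1, after background subtraction by the authors' software. They also hold the median spot and background intensity. The array design is on mm9, per the submitters' processing notes. The authors' table holds log2 values per gene, deposited after scaling to the 75th percentile. It equalled the log2 values computed here within 0.001 in 98.7 to 98.9% of rows, once 1 constant per array was removed, so its scale and direction are known and its centring is not fully known. The medians of its columns were -2.13 to -2.06.

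Processed signals of 55639 probes were scaled so that the 75th percentile of each array, 275 to 367 before scaling, equalled their mean, 322. The 3671 control spots and 42 probes with non-uniformity flags were dropped, and no probe was saturated. The share of probes well above background was 51.4 to 55.6% per array. Probes of one Entrez gene were averaged, genes with a median signal of at least 10 were kept, and log2 was taken, with no pseudocount. limma 3.58.1 in R 4.3.3 (lmFit and eBayes with an intensity trend) fitted 4 group means over 8 arrays with 4 residual degrees of freedom. P-values are two-sided and Benjamini-Hochberg adjusted over 15645 genes, with a threshold of 0.05. The fit was tested on simulated data with independent noise on each array. That simulation held no shared deviation of same-numbered arrays, so it cannot show how the fit behaves under it. The small number of arrays limits the precision. Tables were made with Python 3.11.15.

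Same-numbered arrays deviated together in all pairs of groups (r of 0.329 to 0.445). The pairing was taken from this check, since the labels do not say what a number shares across groups. Replicates were independent pools of mice and cultures, per the labels. The arrays of a group correlated at 0.989 to 0.992, and none were identical.

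The named genes are the 10 members and their probes, Foxl2, up to 12 pathway genes with the smallest adjusted p among those called, and the 3 genes most like the member with the smallest adjusted p. Of the pathway genes, 2 are counted but not reported by name here. Cell type markers were named as lists. Members and lists were chosen with earlier results of these data known. Alternatives covered normexp background correction, quantile normalization, median centring, filters, the brightest probe, the authors' values, the block, the groups in the fit, the intensity trend and each array left out. Normexp was planned on the mean spot signal. The median spot signal was used in its place, as the mean was not analysed here.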

Additional observations from a re-analysis of the deposited data

Results flagged for a closer look

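Igf2 was left out of the test, because its median signal lay under the filter on dim genes, yet 1 array rose above background. On FOXL2 siRNA + E2 replicate 1 the log2 signal was 5.08, and on control siRNA + vehicle it was 2.28 and 3.70, neither well above background. The other array of its group was at 1.46.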

How the results depend on the processing

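Called numbers of members and pathway genes depended most on the replicate block and on single arrays. The directions of the mean siRNA effects held in each alternative run for all tested members but Igf2r, whether called or not. With the replicate block, 6 members were called for the siRNA effect with vehicle, with E2 and over both treatments. Pathway genes numbered 15, 14 and 19 in turn, and the block called 18.7%, 14.9% and 27.7% of all genes. The block also gave 2 pathway genes for the E2 effect with control siRNA, beside 1.16% of all genes. It gave 3 for the difference of the E2 effects, beside 2.12% of all genes. It changed no other call of a member. Normexp background correction called 1 member for the siRNA effect with E2 and 5 over both treatments. For the siRNA effect with vehicle, 5 pathway genes were called when only the compared groups were fitted and 4 without the intensity trend. For the effect with E2, 1 was called under each of these and 1 without the filter. After centring within replicate numbers, 2 members with vehicle and 3 with E2 met the rule on SDs. Without one array in turn, members called over both treatments ranged from 0 to 6, and pathway genes from 3 to 8 with vehicle and from 0 to 4 with E2.

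Signs turned for effects that were not called. With normexp the E2 effect with FOXL2 siRNA was -0.080 for Insr, 0.0065 for Igfbp2 and -0.17 for Igfbp4, and the mean E2 effect on Igfbp4 was -0.083. The difference of the E2 effects on Igfbp5 was 0.019 after quantile normalization, 0.0054 after median centring and 0.0045 with the authors' values. Without one array in turn, log2 E2 effects with control siRNA ranged from -0.011 to 0.17 for Igf2r, -0.54 to 0.29 for Igfbp2, -0.27 to 0.51 for Igfbp4, -0.32 to 0.64 for Igfbp5 and -0.20 to 0.30 for Igfbp6. With FOXL2 siRNA they ranged from -0.33 to 0.027 for Igf1, -0.44 to 0.29 for Igf1r, -0.26 to 0.11 for Igf2r, -0.058 to 0.15 for Insr, -0.46 to 0.34 for Igfbp2, -0.53 to 0.70 for Igfbp4, -0.76 to 1.08 for Igfbp5 and -0.51 to 0.035 for Igfbp6. Averaged over both siRNAs they ranged from -0.069 to 0.11 for Igf1, -0.34 to 0.028 for Igf1r, -0.091 to 0.096 for Igf2r, -0.30 to 0.11 for Igfbp2, -0.20 to 0.41 for Igfbp4, -0.30 to 0.62 for Igfbp5 and -0.23 to 0.043 for Igfbp6. The difference of the E2 effects ranged from -0.20 to 0.52 for Igf1r, -0.34 to 0.029 for Igf2r, -0.35 to 0.48 for Igfbp2, -0.66 to 0.57 for Igfbp4 and -0.92 to 0.92 for Igfbp5. Effects of FOXL2 siRNA ranged from -0.14 to 0.24 with vehicle and -0.12 to 0.063 over both treatments for Igf2r, and from -0.14 to 0.16 with E2 for Igfbp6. The fits without one array had no block. Where a compared group lost an array, 1 replicate was set against both, and the gap between replicates entered the effect. Within replicates 1 and 2, for example, E2 minus vehicle for Igfbp5 with FOXL2 siRNA was 0.26 and 0.054. The causes of the turned signs were not tested. A group left with 1 array was assumed to vary like the others. Without the filter the 3 members called over both treatments were 2 higher, with Igfbp3 among them at background, and 1 lower. Genes at background, such as Igf2 and Igfbp3, have only bounds.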
